A study of Arabidopsis thaliana with 30 samples.

Results

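A set of 194 probe sets had their highest level of the whole course at 12 h of cold stratification, by a set margin over every other group. For each probe set the mean intensity of the 3 arrays of a group was taken, 16 was added, and the result was put on a log2 scale. A probe set belonged to the set when its value at 12 h of stratification exceeded that of each of the other 9 groups by at least 1, and the 194 were chosen in this way from 22746 non-control probe sets. Since 16 was added, this asks for more than a doubling of intensity, and for a rise of several fold where intensities are at or below 16. The probe sets of ZAT10, HRA1, AT4G10270 and AT4G39675 were left out by name, of which ZAT10 and AT4G39675 met the criterion, by 2.83 and 1.56 on the log2 scale, and the other two did not. The peak itself is how these transcripts were chosen, so all values at 12 h of stratification are descriptions without a test.

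Transcript levels were measured in whole seed of Arabidopsis thaliana Col-0, with 80 mg of seed per sample and 30 one-colour Affymetrix arrays. There were 10 groups of 3 arrays each: seed just after harvest (H), dry seed before imbibition (0 h), seed stratified on MS medium at 4 °C in the dark for 1, 12 or 48 h (1 h S, 12 h S and 48 h S), and stratified seed then moved to 22 °C and continuous light of 100 µE for 1, 6, 12, 24 or 48 h (1, 6, 12, 24 and 48 h SL). Drying lasted 14 days by one label and 15 days by another. Water uptake and cold began together, as did light and warmth, and no group was imbibed without cold, so these cannot be told apart. The sources used here do not give whether the 3 samples of a group came from separate plants or cultures. A p-value therefore covers the variation among these samples alone, and that variation may be technical. In whole seed, fewer cells of a type and less RNA per cell cannot be told apart.

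Dry seed carries messenger RNA stored during maturation, and transcription starts again when water enters. Stratification, a cold and moist period, releases dormancy in this species, and gibberellin levels rise in its course. Many plant genes for calcium signalling, jasmonate turnover, ubiquitin ligation and defence respond to cold, touch, wounding or elicitors within minutes to hours and then fall back, and members of these classes are among the genes described here.

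The other groups gave few such peaks within stratification, but these counts depend on how the groups were spaced in time. Of all 22746 probe sets, 82 were called higher at 1 h S than at 0 h, and 50 lower at 1 h SL than at 48 h S. Few could therefore lead at 1 h S or 48 h S, while 12 h S had no neighbouring group so close in time. By the same criterion, 73 probe sets stood above all other groups in H, 0 at 0 h, 2 at 1 h S, 196 at 12 h S, 9 at 48 h S, 17 at 1 h SL, 6 at 6 h SL, 16 at 12 h SL, 58 at 24 h SL and 866 at 48 h SL. The lowest pairwise correlation among the 12 h S arrays was 0.996, against 0.985 at 0 h, the lowest of any group. The median over all probe sets was 12.0 at 12 h S, against 11.9 at 1 h S and 14.2 at 48 h S. These values do not measure RNA quality or a handling effect shared by all arrays of 12 h S, and neither was tested.

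Of the 194 members, 92 named exactly 1 gene in the annotation, 3 named several and 99 named none. Of the 92 genes, 24 lay on chromosome 1, 7 on chromosome 2, 19 on chromosome 3, 20 on chromosome 4 and 22 on chromosome 5. Only AT4G27652 and AT4G27654 were neighbouring protein-coding genes. For 4 members the probe set is of a type that can bind transcripts of related genes. The largest lead of a probe set without a gene name belonged to one with 1019, 1007 and 993 at 12 h S, against at most 24.1 on any of the other 27 arrays.

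**Figure D1:**
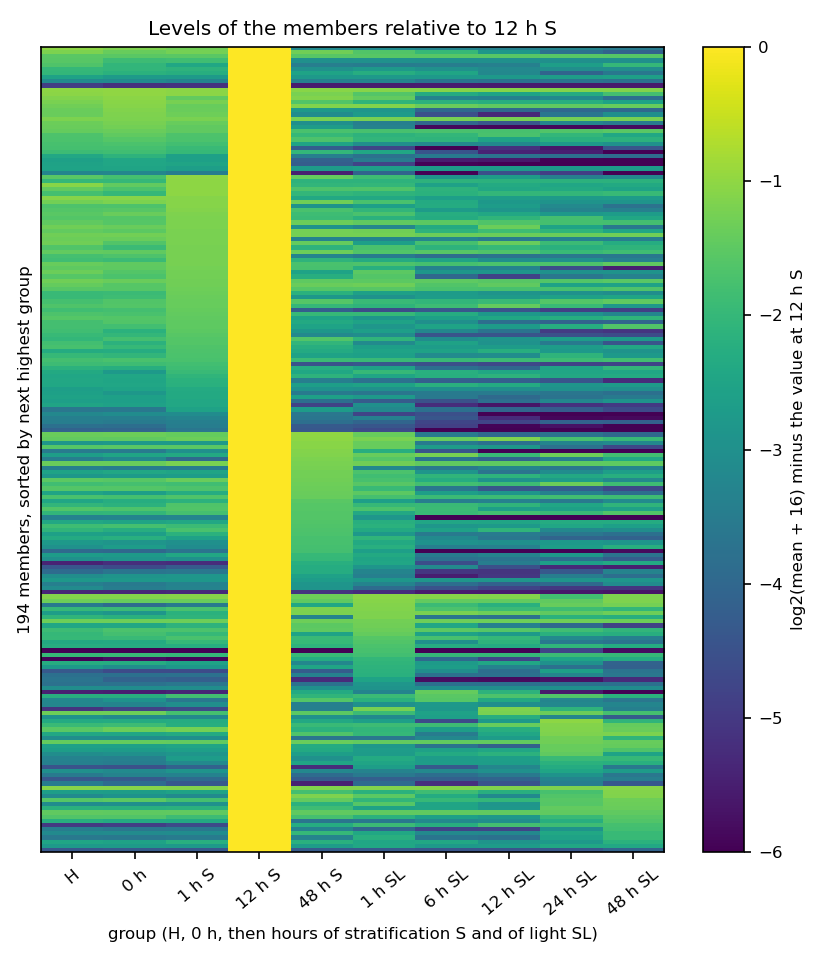
Each row is one of the 194 members and each column a group in time order; the colour gives log2(mean intensity + 16) minus the value at 12 h S, and values under -6 share the darkest colour. Rows are sorted by the group with the next highest level; 12 h S is 0 in every row because the members were chosen for their maximum there, and the rows with 24 h SL or 48 h SL as their next highest group brighten again at the right edge.

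Median intensity over the members was 62.5 in H, 61.4 at 0 h and 67.6 at 1 h S, then 380.7 at 12 h S and 58.1 at 48 h S. In light it was 56.9, 30.8, 26.3, 26.6 and 21.8 at 1, 6, 12, 24 and 48 h SL. The median was thus about the same before and just after the peak and was lower from 6 h SL on. At 12 h S the middle 50% of members ranged from 181.0 to 1099, and the median SD over the mean of the 3 arrays was 8.1%. All 3 arrays of 12 h S lay above all 27 other arrays for 194 of 194 members, a separation the selection nearly fixes. The lead over the next highest group had a median of 1.52 on the log2 scale, reached 2 or more in 52 members and 3 or more in 12, and was 5.10 at most.

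The next highest group was most often the one before the peak, 1 h S, in 62 members, followed by 48 h S in 39, 1 h SL in 23, 0 h in 21, 24 h SL in 16, 48 h SL in 16, H in 10, 6 h SL in 4 and 12 h SL in 3. The members started from different levels. Means were under 32 in each of H, 0 h and 1 h S in 57 members and at least 100 in each of them in 67. In 39 members the mean was under 32 in every group except 12 h S. At the edge of the criterion, AT3G05500, AT1G80630 and AT5G67350 led their next highest group by 1.00, 1.02 and 1.02, and AT3G59350, EXLA1 and UBP22, which stayed outside, by 1.00, 0.99 and 0.97.

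Several of the largest leads belonged to transcripts near the floor of the array in every group but 12 h S. AT2G38240, known as JOX4, encodes a jasmonate-induced oxygenase that hydroxylates jasmonic acid and so removes it from signalling. Its probe set had 1019.5, 1233 and 1072 at 12 h S, against 10.0, 11.8 and 16.7 at 1 h S and 23.4, 15.5 and 11.6 at 48 h S. Its mean was 1108 ± 111 at 12 h S, against 16.8 ± 6.00 at 48 h S (SD, n = 3 each), the next highest group, where it lay near the floor, so no fold is given. AT4G35985 had 498, 418 and 485 at 12 h S, and no other array exceeded 16.2. AT1G72900, a protein with the TIR domain of immune receptors, had 261, 309 and 272 at 12 h S, against at most 22.4 on the other arrays. Neither gene, nor JOX4, was called changed in any comparison between the other groups that was tested.

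Other genes of this kind had smaller leads. AT5G17350 averaged 129.6 ± 7.89 at 12 h S (SD, n = 3), and its other group means lay between 5.32 and 8.99. AT4G27654 averaged 126 ± 5.35 at 12 h S (SD, n = 3) and at most 9.25 elsewhere. PUB25, a U-box ubiquitin ligase with a described part in the cold response, had 37.1, 39.1 and 40.3 at 12 h S, against no more than 4.13 on any other array. The 12 h S arrays of all 3 genes lay clear of the other 27, although PUB25 led by only 1.46 on the log2 scale once 16 was added. Intensities of different probe sets depend on their probes and are not compared with each other here.

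Members with a clear level before the peak reached high intensities at 12 h S. AT1G69890 had 1603, 1417 and 1551 at 12 h S, against 263, 264 and 244 at 1 h S and 243, 246 and 256 in H. AT5G20790 had 1836, 1817 and 1924 at 12 h S, against 251, 215 and 264 at 1 h S and 326, 296 and 286 at 48 h S. Neither showed any overlap between 12 h S and another group. AT1G69760 averaged 4737 ± 289 at 12 h S, against 650.5 ± 72.8 at 1 h S (SD, n = 3 each), and was lower at 48 h SL than at 48 h S by -1.67. AT3G02910, of a family of gamma-glutamylcyclotransferase-like proteins, had 2426, 2049.9 and 2428 at 12 h S, against at most 950.1 on any other array. Its next highest arrays were those of 24 and 48 h SL, and it was called in none of the comparisons between other groups. AT3G23170 had 1270.5, 956 and 1328 at 12 h S, against 59.7, 33.8 and 36.6 at 1 h S and 12.1, 12.6 and 9.50 at 48 h S, a set of levels in which the group after the peak lay below the one before it.

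**Figure D2:**
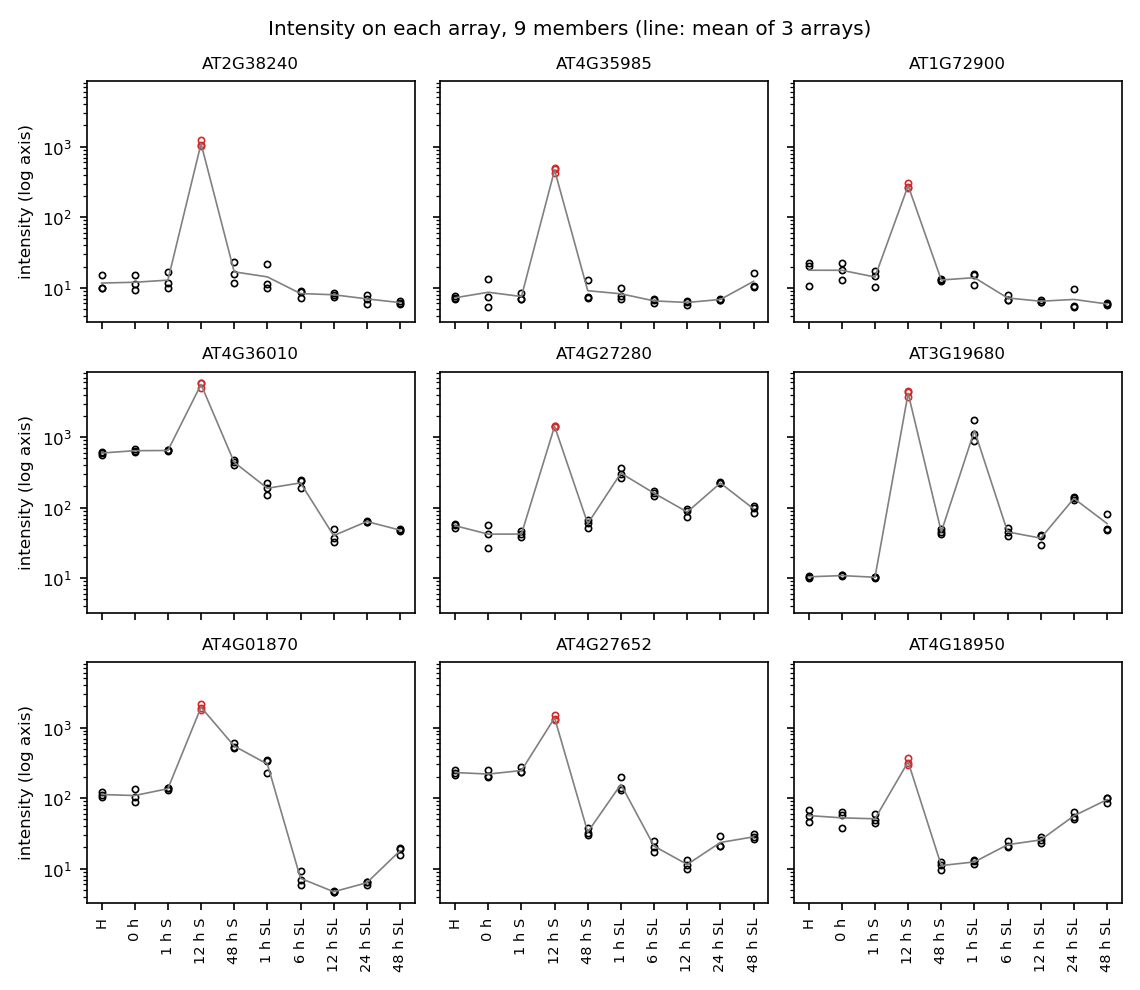
Each panel shows 1 member, with the intensity of each of the 30 arrays on a log axis by group in time order; points are arrays, red points are the 3 arrays of 12 h S, and the line joins group means. JOX4 (AT2G38240), AT4G35985 and AT1G72900 return to the floor by 48 h S, AT3G19680, AT4G27652 and AT4G27280 have a second, lower maximum at 1 h SL, AT4G01870 stays above its earlier level until 1 h SL, and AT4G18950 climbs again by 48 h SL.

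Comparisons that do not involve 12 h S were tested for all probe sets with limma, and a probe set was called when its Benjamini-Hochberg adjusted p was under 0.05 and its log2 difference at least 1. The selection caps every other group below 12 h S but sets no order among those groups. It also leaves out probe sets that are highest in light, such as the 866 that led at 48 h SL. Low shares of members rising in light are therefore partly set by the selection. Of the 194 members, 109 were called in at least 1 of 6 such comparisons and 85 in none.

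Before the peak few members moved by a log2 difference of 1. Between 0 h and H, 0 members were called higher and 0 lower, with 0.0% and 0.321% of all probe sets called, and 0 members had an adjusted p under 0.05 whatever the size. Between 1 h S and 0 h, 2 members were called higher, 1.03% of them, and 0 lower, with 0.361% and 0.154% of all probe sets called. The median difference of the members was 0.10, against -0.01 over all probe sets, and the difference was above 0 in 131 members and below 0 in 63. Without the demand on size, 44 of the 194 had an adjusted p under 0.05 (limma), as had 15.6% of all probe sets. SEC15B, a subunit of the exocyst, which tethers secretory vesicles to the plasma membrane, had 195, 178 and 233 at 1 h S, against 59.1, 115 and 113 at 0 h, a log2 difference of 1.00 ± 0.17 (SE; limma, adjusted p = 0.000502). The other member called names no gene and had 340, 346 and 415 at 1 h S, against 73.4, 183 and 248 at 0 h, a difference of 1.19 ± 0.25 (SE; limma, adjusted p = 0.00329). In both, replicate 1 of dry seed was the lowest array by a wide gap, and this is the group whose arrays correlated least. Without that array 0 members were called, and without dry seed replicate 3 there were 5. The remaining 192 members, JOX4 and AT3G19680 among them, were not called after 1 h in the cold.

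The level after the peak was compared with the level before it, that is 48 h S with 1 h S. Of the members, 23 were higher at 48 h S, or 11.9%, close to the 12.2% of all probe sets called higher. A further 35 were lower, or 18.0%, against 8.64% of all probe sets. Dim probe sets are seldom called, so the shares were also taken among the 9318 probe sets with a mean over 50 over the 27 arrays outside 12 h S, which include 108 members. This split leaves out the group the members were chosen on and was added after the data were seen. In it 21.3% of members and 18.0% of all were called lower, and 16.7% and 26.0% higher. Most members, 136, were not called in either direction, and the median difference was -0.07, against -0.02 over all probe sets. Not called does not mean unchanged: without the demand on size, 132 of the 194 had an adjusted p under 0.05 (limma), against 49.3% of all probe sets.

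Among the members still raised at 48 h S were enzymes of small-molecule metabolism. UGT76B1, a glucosyltransferase that acts on isoleucic acid and salicylic acid, averaged 154 at 48 h S and 52.1 at 1 h S, a difference of 1.31 on the log2 scale (limma, adjusted p = 7.95e-07). GSTU22, a glutathione transferase of the tau class, averaged 37.7 at 48 h S and 9.18 at 1 h S, a difference of 1.09. AT1G32920 had 1516, 1626 and 1534 at 48 h S, against 481, 288 and 370.2 at 1 h S, a difference of 2.02 ± 0.15 (SE; limma, adjusted p = 7.99e-11). Its mean at 12 h S was 7624 ± 302 (SD, n = 3), so 48 h S stood between the levels before and at the peak. AT4G01870, related to bacterial TolB proteins, had 599, 515 and 528 at 48 h S, against 130, 138 and 141 at 1 h S, a difference of 1.89 ± 0.12 (SE; limma, adjusted p = 6.66e-12). AT1G26920 and AT5G66440 were higher at 48 h S by 2.01 and 1.32. The largest difference belonged to a probe set without a gene name, which averaged 305 at 48 h S and 10.2 at 1 h S.

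Other members dropped below where they had started. AT4G27652 had 31.9, 37.5 and 29.8 at 48 h S, against 275, 232 and 232 at 1 h S, a log2 difference of -2.42 ± 0.12 (SE; limma, adjusted p = 1e-13). All 3 arrays at 48 h S were far below those of H and dry seed as well, where the lowest was 199. AT5G15870, a glycoside hydrolase of family 81, whose members cleave callose-type glucans, averaged 48.3 ± 6.07 at 48 h S and 252 ± 1.77 at 1 h S (SD, n = 3 each), a difference of -2.06 (limma, adjusted p = 2.48e-10). AT3G17710, an F-box protein, differed by -1.83 and AT1G69890 by -1.73. Of the 7 protein kinase genes among the members, 3 were lower at 48 h S. These were AT4G18950, a Raf-like kinase with ankyrin repeats, by -1.30, AT3G57120 by -1.17, and ATMRK1, a Raf-related kinase, by -1.05.

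**Figure D3:**
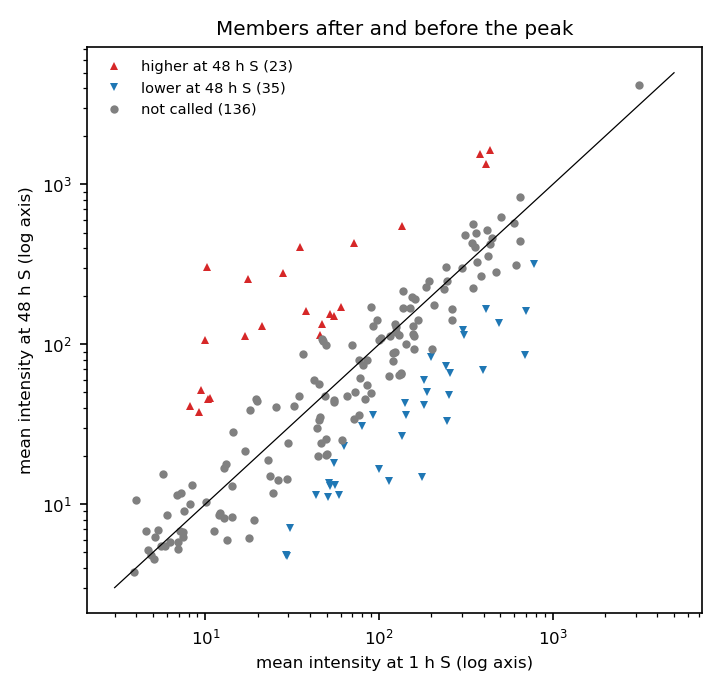
Each point is 1 of the 194 members, with its mean intensity at 48 h S on the vertical axis against that at 1 h S on the horizontal axis, both log axes; the line marks equal values. Red upward triangles are the 23 members called higher at 48 h S, blue downward triangles the 35 called lower, and grey circles the 136 not called, which lie along the line.

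A second rise within 1 h of light and warmth was more frequent among the members than among all probe sets. Between 1 h SL and 48 h S, 15 members were called higher, or 7.73%, against 0.567% of all probe sets, and 9 were called lower, or 4.64%, against 0.22%. Among the 9318 brighter probe sets the shares called higher were 10.2% of members and 1.23% of all, and those called lower 6.48% and 0.386%. The median difference of the members was still -0.12, since most did not rise. All 3 arrays at 1 h SL lay above all 3 at 48 h S in 15 of the 15 risers, a separation the call nearly fixes. Replicate 1 was the highest array at 1 h SL in 11 of the 15, and without it 12 members were called higher and 6 lower.

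AT3G19680, a protein of the DUF1005 family, whose function is not settled, showed the largest second rise of a named member. It had 1737, 872 and 1118 at 1 h SL, against 49.5, 45.0 and 42.0 at 48 h S, a log2 difference of 4.30 ± 0.17 (SE; limma, adjusted p = 6.2e-14). Its arrays at 12 h S, 4335, 4487 and 3734, were higher still, and at 1 h S it had 10.5, 10.3 and 10.2. By 6 h SL the rise was gone, with 39.7, 44.6 and 51.7, a difference of -4.31 ± 0.17 from 1 h SL (SE; limma, adjusted p = 3.32e-15). The level at 48 h S was also above that at 1 h S, by 1.22 (limma, adjusted p = 1.28e-06). The other member of this family in the set, AT1G50040, averaged 268.5 ± 30.9 at 12 h S (SD, n = 3) and had 44.7, 16.8 and 8.99 at 1 h SL, against 5.94, 4.89 and 4.89 at 48 h S. Its 3 arrays at 1 h SL were above those at 48 h S but spread widely, and it was not called.

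Calcium-binding proteins were represented by AT4G27280, a small EF-hand protein, and AT3G25600, a calmodulin-like protein. AT4G27280 had 1454, 1381 and 1447 at 12 h S, and 364, 262 and 302 at 1 h SL, against 66.3, 61.0 and 51.3 at 48 h S. The difference between 1 h SL and 48 h S was 2.10 ± 0.14 (SE; limma, adjusted p = 4.93e-10), with no overlap of the arrays. It was not called lower at 6 h SL, where it averaged 161 ± 15.6 (SD, n = 3). AT3G25600 averaged 489 ± 30 at 12 h S (SD, n = 3) and did not rise at 1 h SL, with 23.1, 33.9 and 18.8, against 21.1, 26.4 and 24.5 at 48 h S. It was called higher at 48 h SL, averaging 104 at 48 h SL and 24.0 at 48 h S, a difference of 1.58 (limma, adjusted p = 4.65e-10).

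Members that rose a second time had stood on either side of their earlier level. Of the 15 risers, 7 had been called lower at 48 h S than at 1 h S, 3 higher and 5 neither. AT4G27652, which had fallen furthest below its earlier level among named members, had 202, 129 and 139 at 1 h SL, against 31.9, 37.5 and 29.8 at 48 h S, a difference of 1.79 ± 0.12 (SE; limma, adjusted p = 1.05e-09). Its neighbour on chromosome 4, AT4G27654, was not called, with 6.03, 6.17 and 9.06 at 1 h SL, against 5.80, 5.89 and 5.73 at 48 h S. AT3G23170 had 76.7, 50.1 and 65.2 at 1 h SL, against 12.1, 12.6 and 9.50 at 48 h S, a difference of 1.53 ± 0.17 (SE; limma, adjusted p = 1.92e-06). Its fall at 48 h S relative to 1 h S, -1.09, was no longer called without replicate 1 of 1 h S, at -0.90. AT1G18740, a protein related to the exocyst-binding ROH1, averaged 64.2 ± 18.1 at 1 h SL and 21.4 ± 5.22 at 48 h S (SD, n = 3 each), a difference of 1.09. That call was lost without replicate 1 of 1 h SL, at 0.92, and without replicate 2 of 48 h S, at 0.97. AT3G60200 was the sixth named member that rose.

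Of the 9 members that fell at 1 h SL, the named ones with the largest falls were AT1G68490, AT4G36010 and AT1G68670. AT4G36010, a thaumatin-like protein of the pathogenesis-related class, had 5862, 5882 and 5029.8 at 12 h S, and 151, 223 and 192 at 1 h SL, against 443, 470.1 and 408 at 48 h S. The difference between 1 h SL and 48 h S was -1.17 ± 0.11 (SE; limma, adjusted p = 1.15e-07). AT1G68670, a GARP-family repressor of nitrate and phosphate starvation genes, averaged 222 at 1 h SL and 486 at 48 h S, a difference of -1.10 (limma, adjusted p = 1.29e-06), and was not called without replicate 1 of 1 h SL, at -0.96. AT1G68490 differed by -1.19.

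Between 6 h SL and 1 h SL the members fell more often than probe sets at large. Of the members 48 were called lower, or 24.7%, against 4.39% of all probe sets, and 1 was called higher, or 0.515%, against 4.29%. Among the brighter probe sets 37.0% of members and 9.54% of all were called lower, and 0.926% and 9.22% higher. The low share of rises is partly set by the selection, which left out probe sets highest in light. Of the 15 risers at 1 h SL, 12 were called lower again at 6 h SL, and 3 were not called, AT4G27280 among them. Of the 23 members still raised at 48 h S, 12 were called lower at 6 h SL than at 1 h SL, among them UGT76B1, AT4G01870 and AT5G66440. AT4G01870 had 6.83, 9.24 and 5.84 at 6 h SL, against 227, 342 and 344 at 1 h SL, a log2 difference of -3.76 ± 0.12 (SE; limma, adjusted p = 2.12e-16). It had thus remained high through 48 h S and 1 h SL and was near the floor 5 h later.

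Transcripts with roles outside signalling fell in the same interval. AT3G05500, a protein that coats lipid droplets, had 8748, 8134 and 8540 at 12 h S, and 686, 764 and 709 at 6 h SL, against 2709, 3262 and 3681 at 1 h SL. The difference between 6 h SL and 1 h SL was -2.13 ± 0.08 (SE; limma, adjusted p = 7.85e-16). AT1G06760, the linker histone H1.1, averaged 149 ± 18.9 at 6 h SL and 442 ± 33.2 at 1 h SL (SD, n = 3 each), a difference of -1.48, and averaged 787 ± 86.5 at 48 h SL. AT5G20790 differed by -2.07, AT1G69890 by -1.17 and AT1G17620, of a family related to the resistance protein NDR1, by -1.25. The single member that rose names no gene and averaged 772 at 6 h SL and 199.6 at 1 h SL.

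**Figure D4:**
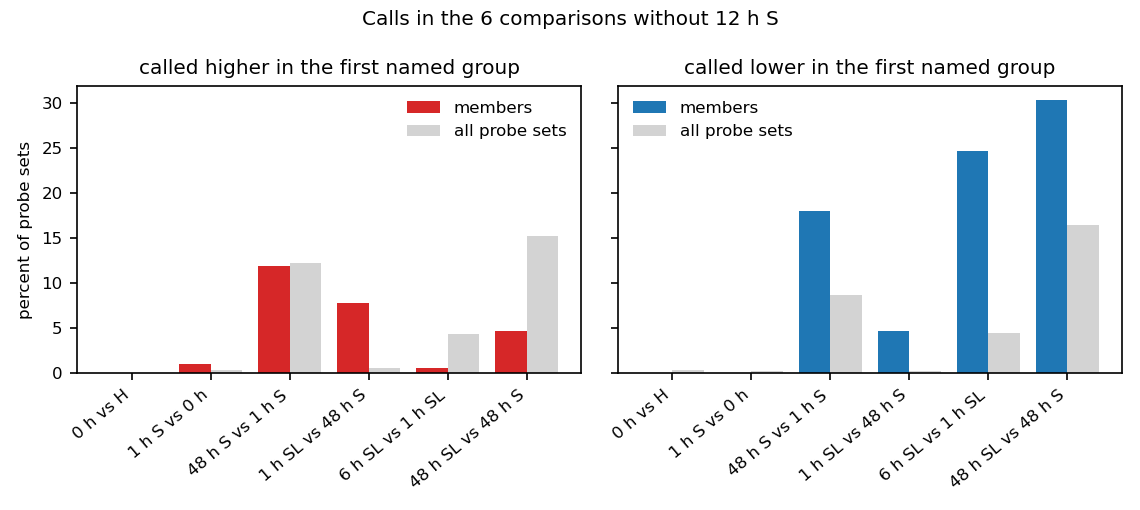
Bars give the percent of probe sets called higher (left panel) and lower (right panel) in the first named group of each of 6 comparisons, for the 194 members (coloured) and for all 22746 probe sets (grey). Members exceed all probe sets in rises and falls at 1 h SL against 48 h S. They also exceed them in falls at 48 h S against 1 h S, 6 h SL against 1 h SL and 48 h SL against 48 h S. They lie below them in rises at 6 h SL against 1 h SL and at 48 h SL against 48 h S. The low shares of rises at 6 and 48 h SL are partly set by the selection, which left out probe sets highest in light.

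At the end of the course the members lay mostly at or below their level of 48 h S. Between 48 h SL and 48 h S, 59 members were called lower, or 30.4%, against 16.5% of all probe sets, and 9 higher, or 4.64%, against 15.2%. Among the brighter probe sets the shares called lower were 46.3% of members and 35.2% of all, and those called higher were 5.56% and 22.4%. The selection left out probe sets highest at 48 h SL, so the low share of rises is partly set by it. AT4G01870 averaged 17.9 ± 2.00 at 48 h SL and 547 ± 44.9 at 48 h S (SD, n = 3 each), a difference of -4.05 (limma, adjusted p = 2.25e-18). AT3G54000 differed by -3.31, AT1G32920 by -3.23, AT3G05500 by -2.95 and AT4G36010 by -2.83. All 5 averaged less at 48 h SL than in dry seed.

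The 9 members that were higher at 48 h SL included a kinase gene and a calcium-binding protein gene. AT4G18950 had 84.4, 101 and 101 at 48 h SL, against 9.57, 12.3 and 11.4 at 48 h S, a log2 difference of 2.04 ± 0.12 (SE; limma, adjusted p = 3.89e-13). Its arrays were at 45.0 to 58.9 at 1 h S, so this kinase transcript fell below and then passed its starting level. AT3G25600 was described above. AT1G18740 averaged 79.9 ± 11.6 at 48 h SL, higher by 1.36 (limma, adjusted p = 2.8e-10), and AT3G23170 averaged 42.7 ± 7.46, higher by 1.09 (limma, adjusted p = 6.25e-06). The call of AT3G23170 was lost when arrays were centred on their medians, at 0.87, or quantile normalized, at 0.93.

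Regulators of transcription led their next highest group by 1.02 to 1.53. The 6 assigned here were AT1G68670, AT5G65100 of the EIN3-like family of ethylene signalling, AT5G59450 and AT2G29065 of the GRAS family, AT3G57800, a bHLH protein, and AT1G80450, a VQ-motif protein of the kind that binds WRKY factors. AT5G65100 was lower at 48 h S than at 1 h S by -1.30 and lower at 48 h SL than at 48 h S by -2.25. The last 4 were called in none of the 6 comparisons. The 3 ubiquitin ligase genes, PUB25, the U-box gene AT5G09800 and the RING gene AT4G35840, led by 1.46 to 1.69 and were also called in none. Of the remaining kinase genes, AT1G70740, AT4G02630, AT5G20050 and the receptor-like AT5G24010 were called in none.

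Defence-related members were AT1G72900 and AT1G61100, both with a TIR domain, AT4G36010, AT1G17620 and AT4G28460, the precursor of the secreted peptide PIP1, which amplifies immune signalling. They led by 1.08 to 3.14. AT4G28460 was lower at 48 h S than at 1 h S by -1.30. Cell wall and glycan enzymes numbered 5. EXGT-A3, a xyloglucan endotransglucosylase that remodels the wall during growth, had 837, 768 and 832 at 12 h S, and 165, 166 and 179 at 48 h S, against 79.5, 104 and 87.5 at 1 h S. Its mean was 312 ± 30.4 at 48 h SL (SD, n = 3), its next highest group, but it was called in none of the 6 comparisons. AT2G41640, a glycosyltransferase of family 61, had 323, 355 and 330.1 at 12 h S, against at most 37.6 on other arrays. AT1G12990 and AT5G18220 were called in none, and the low AT5G18220 varied between its 12 h S arrays, with 46.4, 68.3 and 26.2.

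Pairs and small families were present together. AT4G29780 and AT5G12010, related to each other and to transposase-derived nucleases, averaged 623 ± 38.3 and 1132 ± 69.5 at 12 h S (SD, n = 3 each), led by 3.41 and 2.37, and were called in none of the 6 comparisons. Of the genes with DUF630 and DUF632 domains, AT3G60320, AT4G35240 and AT1G52320 were members. AT3G60320 was called in none, AT4G35240 was lower at 48 h S, at 6 h SL and at 48 h SL, by -1.63, -1.40 and -1.41, and AT1G52320 was lower at 48 h SL by -1.68. The role groups hold 42 members, were drawn up after the members were known and carry no test.

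Genes of several pathways were followed in lists, of which only genes named by a probe set could be seen. These lists were written with earlier results of these data known. Of 33 jasmonate genes 5 were named, and 1, JOX4, is a member. JOX2, its relative, averaged 207 ± 12.2 at 12 h S and 23.6 ± 2.28 at 1 h S (SD, n = 3 each), higher by 2.50 (limma, adjusted p = 5.66e-10), but remained at 129 at 48 h S and so is no member. JOX1, JOX3 and JMT, which methylates jasmonic acid, had means of 4.21 to 5.79 in all 10 groups. In this list 2 of 5 were higher at 12 h S, JOX4 among them by selection, where 2.88% of all probe sets were called higher. The median of the list was -0.00, against -0.01 over all probe sets, since the other 3 stayed at the floor. Of 46 genes of the rapid touch, wound and elicitor response 8 were named and 0 are members. WRKY6 and CML38 were higher at 12 h S, by 1.33 and 3.34, and lower at 48 h S than at 12 h S, by -1.54 and -3.17, a fall called in 8.35% of all probe sets, while WRKY53, CML39 and PUB22, PUB23 and PUB24 had means of at most 5.54 at 1, 12 and 48 h S. WRKY22 averaged 36.4 ± 14.5 at 12 h S and 33.4 ± 7.77 at 1 h S (SD, n = 3 each) and was not called. CML38 had later group means of up to 183, at 24 h SL, which kept it out. The median of the 8 was -0.01.

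Of 21 cold-response genes 6 were named and 1, ZAT10, was higher at 12 h S than at 1 h S, where 2.88% of all probe sets were called higher. ZAT10 was left out of the set by name but met the criterion, which fixes its rise to 12 h S and its fall by 48 h S. COR15A, COR15B and COR47, which protect cells from freezing, had means of 4.10 to 6.87 at 1, 12 and 48 h S. COR27 and COR28 also had their highest means at 12 h S but did not lead by enough. COR27 averaged 583 ± 90.6 at 12 h S and 365 ± 40.6 at 1 h S (SD, n = 3 each), a difference of 0.65 (limma, adjusted p = 0.000698), under the size asked for. COR28 averaged 2749 ± 147 at 12 h S and 2412 ± 115 at 1 h S (SD, n = 3 each). With ZAT10 they made up the 3 of 6 that were lower at 48 h S than at 12 h S, COR27 by -1.97 and COR28 by -1.84. Such a fall was called in 8.35% of all probe sets. Of 27 genes of the low-oxygen response 13 were named and 6 were higher at 12 h S than at 1 h S, against 2.88% of all probe sets. At 48 h S against 1 h S, 6 were called higher and 2 lower, with 12.2% and 8.64% of all probe sets. At 1 h SL against 48 h S, 4 were higher and 0 lower, with 0.567% and 0.22%. The list was thus not raised at 12 h S alone. None of the 13 is a member, but HRA1, AT4G10270 and AT4G39675, left out by name, belong to this list. Among them AT4G39675 met the criterion, which fixes its rise to 12 h S. The median difference between 12 h S and 1 h S was 0.10 in the cold list and 0.97 in the low-oxygen list, against -0.01 over all probe sets. GI was the only one of 18 clock genes named and was not called, with 85.0 ± 7.10 at 12 h S and 69.9 ± 9.52 at 1 h S (SD, n = 3 each). None of 23 genes of abscisic acid and dormancy and none of 12 of sugar starvation were named.

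Markers of seed tissues were not called between 12 h S and 1 h S where they could be read, but some moved after the peak. OLEO5 and OLEO3, oil-body proteins of the embryo and maturing seed, averaged 11462 and 430.2 at 12 h S and 12339 and 542 at 1 h S and were not called. Of 8 seed coat genes 3 were named: BAN and PRX36 had means of 3.98 to 5.36 in all groups, and SBT1.7 averaged 564 at 12 h S and 438 at 1 h S and was not called. Between 48 h S and 12 h S, where 10.1% of all probe sets were called higher, SBT1.7 averaged 2799 at 48 h S and 564 at 12 h S, higher by 2.28 (limma, adjusted p = 2.24e-14). OLEO3 averaged 171 at 48 h S and 430.2 at 12 h S, lower by -1.25 (limma, adjusted p = 8.18e-08), and OLEO5 was not called. The part of these changes in the members' fall at 48 h S was not tested. Of 4 endosperm genes 0 were named, so endosperm could not be checked, and its part in the peak was not tested.

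The profiles most like the mean profile of the members were sought among probe sets that name 1 gene and are no members, by Pearson correlation over the 10 group means. AT5G41330 came first, at 0.996, with 36.7 at 12 h S, against 12.8 at 1 h S and 12.2 at 48 h S, a lead of 0.87. AT4G36150, AT4G36000, AT1G07160 and AT2G46940 followed at 0.972 to 0.978, all with means under 10 at their highest, so their leads of 0.12 to 0.18 lie near the floor. The points of these correlations share their arrays, and the members' mean profile is set largely by 12 h S.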

How the data were processed

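Probe set intensities on a linear scale were used as the authors deposited them. The submitters' processing notes name MAS5, RMA and Partek, and the sources used here do not give which of these made the deposited intensity values. They ran from 2.54 to 32818. No 2 columns were identical. Precision is limited by the number of arrays, 3 per group. Array medians ranged from 11.8 to 19.4.

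After 16 was added, log2 values of all 30 arrays and 22746 probe sets (64 controls aside) were fitted with limma 3.58.1 in R 4.3.3, with 1 mean per group, 20 residual and 1.2 prior degrees of freedom. Adding 16 understates differences of dim probe sets, and detection calls were not used. Called means an adjusted p under 0.05 (Benjamini-Hochberg over all probe sets) and a log2 difference of at least 1, two-sided. The fit was tested on simulated data. For list genes outside the set, 12 h S was also compared with 1 h S and 48 h S, which was added later. Members naming exactly 1 gene were named if among the 12 largest leads, the 12 highest at 12 h S, the 4 largest called rises or falls of a comparison, the 3 at either side of the criterion, or in a gene list; others described by role were chosen after their values were seen. Names come from the platform annotation, and 91 of 92 loci were found in the RefSeq table of TAIR10.1; functions are general knowledge. The members and lists were chosen with earlier results of these data known. Promoter sequences, planned for a motif search, were not analysed here. Alternatives covered the added constant (1, 64), normalization, dim probe sets, the groups fitted, the replicate number as a block and each replicate left out. Tables were made with pandas 2.3.3 and numpy 2.4.6, and figures with matplotlib 3.10.9, under Python 3.11.15.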

Additional observations from a re-analysis of the deposited data

How the results depend on the processing

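The number of members moved with the criterion: 436 probe sets met a lead of 0.5 and 52 a lead of 2, against 194 at 1. Leaving out a replicate of 12 h S gave 192 to 195, a constant of 1 gave 244 and of 64 gave 132, quantile normalization 188, of which 180 are members, and centring on medians 220. Members called between 1 h S and 0 h, 2 at first, numbered 0 with only those groups fitted, 9 with a constant of 1, 0 with 64, and 0 to 5 with a replicate left out. With a constant of 64, which shrinks dim differences, 31 of 58 stayed called between 48 h S and 1 h S, 14 of 24 between 1 h SL and 48 h S, 28 of 49 between 6 h SL and 1 h SL and 42 of 68 between 48 h SL and 48 h S. With a replicate left out these counts ranged from 56 to 59, 18 to 26, 47 to 50 and 67 to 70, and between 0 h and H the count stayed 0. Over all probe sets, 73 called between 0 h and H became 28 with only those groups, 133 with a constant of 1 and 38 with 64; between 1 h S and 0 h, 117 became 9, 345 and 40, and 212 without dry seed replicate 3; between 1 h SL and 48 h S, 179 became 116, 295 and 101; and with 64 the counts 4730, 1974 and 7218 of the other comparisons became 3064, 1047 and 4695. The causes were not tested. Centring on medians moved every difference by -0.22 between 48 h SL and 48 h S and by -0.11 between 48 h S and 1 h S, and gave 6 members higher and 73 lower and 21 higher and 38 lower in these comparisons, against 9 and 59 and 23 and 35.

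Each of the 45 calls of named members was recomputed under each alternative that applied to it, which gave 585 pairs of a call and an alternative. Of these pairs 551 kept the call, 34 lost it, 19 of them with a constant of 64, and 0 reversed. Leaving out dim probe sets kept all 45 calls. That filter took the highest group mean, 12 h S included, so members could pass it through their peak and it says little about them. SEC15B lost its call without dry seed replicate 1 (0.74), without replicate 3 of 1 h S (0.90), with quantile normalization (0.86) and with only its groups fitted (limma, adjusted p = 0.181). AT5G67350, just inside the criterion, lost its fall at 48 h S without replicate 3 of 1 h S or replicate 1 or 3 of 48 h S. With only their groups fitted, AT1G18740 and AT1G68670 at 1 h SL had limma adjusted p of 0.0796 and 0.0538. Replicate numbers did not pair the samples: same-numbered deviations correlated at -0.27 to 0.177, in 0 of 6 comparisons were all 3 over 0.1, and in 0 did every sample correlate best with its own number. With the replicate number as a block the counts were 0, 2, 58, 24, 49 and 68, as without it. The promoter motif search was not run. Signals near the floor limit what can be said of dim members, since 16 is added to them.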
